A study of Mus musculus with 28 samples.

Results

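Zfp281, Zfp148, Tcf7l1, Tfe3, Flcn, Fnip1, Fnip2, Zfp706 and Mbd3 are 9 genes known for their part in the exit of mouse embryonic stem cells from the naive state. They were taken by symbol from the 24116 genes counted in this study, and all 9 had enough counts to be tested in every comparison. RNA was sequenced from RGd2 cells, a female mouse embryonic stem cell line that carries a Rex1:GFPd2-IRES-Blasticidin reporter. The stage named ESC is culture in N2B27 medium with 2i, the Gsk3 inhibitor CHIR99021 and the Mek inhibitor PD0325901. The stages named 16 h and 32 h are the same cells that many hours after 2i was withdrawn. The genotypes were knockouts (KO) of Zfp281, of Ehmt1 and Zic2 together (Ehmt1/Zic2 KO), of Zic2 and of Ehmt1, and wild type (WT). Each genotype of a set came as 2 lines with 1 library per line and stage, which makes 14 groups and 28 libraries. Zfp281 KO cells were sequenced at ESC, 16 h and 32 h beside the WT lines named WT and Zfp281_WT, from total RNA depleted of ribosomal RNA (the ribo-depleted set, 12 libraries). The other KO genotypes were sequenced at ESC and 32 h beside the WT lines named Ehmt1_WT and Zic2_WT, from mRNA (the polyA set, 16 libraries). The labels say neither what the KO alleles remove nor whether numbered lines are independent clones, so p-values measure the spread between these lines. Where a WT line is left out, 1 WT library per stage remains, and it is taken to vary like the libraries of the other groups in the fit, so such p-values hold no spread between WT lines.

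Naive pluripotency is held in 2i by a network of transcription factors, and its loss is an active step that needs its own genes. Tcf7l1 (also named Tcf3) is a Tcf/Lef factor that represses naive genes until beta-catenin relieves it. Flcn forms a complex with Fnip1 or Fnip2 that acts on Rag GTPases at the lysosome. The complex keeps Tfe3, a basic helix-loop-helix factor of the MiT/Tfe family, in the cytoplasm, whereas nuclear Tfe3 supports naive genes and lysosomal genes. Zfp281 and its relative Zfp148 are zinc finger factors that bind G-rich DNA, and Zfp706 is a small zinc finger protein. Mbd3 is a subunit of the NuRD complex, which joins histone deacetylases with a chromatin remodeller.

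The sequences of 4 promoters are shown. Flcn, Fnip1 and Fnip2 are included because they encode the complex upstream of Tfe3, of which Flcn and Fnip1 fell together after 2i withdrawal. Zfp148 is included because it was higher in Zfp281 KO cells at every stage. Each sequence is 100 bases long and ends 25 bases before a transcription start listed by RefSeq (GRCm38.p6), read 5′ to 3′ on the strand of the gene. For Fnip1 and Fnip2 that start lies inside the gene as listed. The Fnip1 gene begins at 54438107, inside its stretch, and the Fnip2 gene at 79568151, upstream of its stretch. Capitals mark the letters CACGTG, the E-box read by MiT/Tfe factors, in Fnip1 (chr11:54438054-54438153, plus strand). In Zfp148 (chr16:33380650-33380749, plus strand) they mark ATCAAAG, a Tcf/Lef motif. The stretches of Flcn (chr11:59810065-59810164, minus strand) and Fnip2 (chr3:79567705-79567804, minus strand) hold no capitals because none of the motifs searched was in them.
Fnip1: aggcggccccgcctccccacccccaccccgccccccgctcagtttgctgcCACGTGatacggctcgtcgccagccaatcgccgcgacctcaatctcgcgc
Flcn: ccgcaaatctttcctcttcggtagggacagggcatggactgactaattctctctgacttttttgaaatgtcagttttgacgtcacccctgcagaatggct
Fnip2: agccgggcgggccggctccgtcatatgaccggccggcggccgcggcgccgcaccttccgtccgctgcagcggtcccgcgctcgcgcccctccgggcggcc
Zfp148: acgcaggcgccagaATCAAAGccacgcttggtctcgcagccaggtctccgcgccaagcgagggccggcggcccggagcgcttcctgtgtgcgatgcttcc
Promoters of 8 of the 9 genes were in the RefSeq table, and each window of 300 bases was searched on both strands for 5 strings of letters. CACGTG was in 7.15% of all 32851 promoters and, among these genes, in Fnip1 at position -75, counted from the start used for its stretch. TCACGTGA, a longer form that contains CACGTG, was in 0.974% of promoters and CATGTG in 14.2%, and neither was found in these genes. ATCAAAG was in 3.73% of promoters and in Zfp148 at position -111. GGGGAGGGG, a string of the kind bound by Zfp281 and Zfp148, was in 6.37% of promoters, in Tcf7l1 at position -201 and at 2 positions in the window of another Zfp148 start. These matches describe letters only.

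Total counts were 18086421 to 36365192 per ribo-depleted library and 19013882 to 28777604 per polyA library. The smallest count of a member in a library was 222 (Tcf7l1, ribo-depleted). The summed level of 10 embryonic stem cell markers was 3550 to 4910 CPM in every library, the CPM of a gene being its count relative to the library total after scaling by the TMM method. Markers of other cell types summed to 4.5 to 28.1 CPM (fibroblast), 91.5 to 239 CPM (primitive endoderm), 36.2 to 117 CPM (trophoblast), 91.6 to 364 CPM (neural) and 11.7 to 48.7 CPM (mesendoderm). Ehmt1, the gene of a histone H3 lysine 9 methyltransferase, was at 17.6 to 31.4 CPM in Ehmt1 KO and Ehmt1/Zic2 KO libraries, against 80.3 to 154 CPM in polyA WT libraries. Zic2, which encodes a zinc finger factor, was at 107 to 228 CPM in Zic2 KO libraries, against 105 to 146 CPM in polyA WT libraries. In Ehmt1/Zic2 KO it was at 141 and 208 CPM in line 1 and 66.5 and 77.3 CPM in line 2, at ESC and 32 h. Only line 2 of Ehmt1/Zic2 KO lay below all polyA WT libraries, so the level of Zic2 does not check those labels. The Zfp281_WT libraries stood apart at ESC and 32 h. They had a count in 89% and 87% of olfactory receptor genes and fibroblast markers at 19.4 and 17.9 CPM. All other libraries of the ribo-depleted set had a count in 8.9% to 24.8% of olfactory receptor genes and fibroblast markers at 4.5 to 10.5 CPM.

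After 32 h without 2i, Zfp706, Flcn, Fnip1 and Zfp148 fell in WT cells of both sets, while Tfe3 and Zfp281 rose in WT cells of the polyA set. These are bulk libraries, in which a level that is lower in every cell and a level lost from a share of the cells cannot be told apart. In polyA WT cells 2 of 9 members rose and 4 fell at an adjusted p under 0.05, where 17.9% of all 15667 genes tested rose and 17.8% fell. In ribo-depleted WT cells 0 rose and 4 fell (15% and 11% of 18971 genes). More genes passed the filter in this fit than in the polyA fit, so shares of all genes have different bases in the sets. In Zfp281 KO cells 1 rose and 4 fell (14.2% and 10.4% of all genes). Among Ehmt1/Zic2 KO cells 0 rose and 1 fell (7.17% and 7.19%), in Zic2 KO cells 1 rose and 4 fell (15.7% and 15.2%), and in Ehmt1 KO cells 2 rose and 2 fell (11.5% and 11%). With the line as a replicate block the count called in Ehmt1/Zic2 KO cells was 6, against 1 without it.

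**Figure D1:**
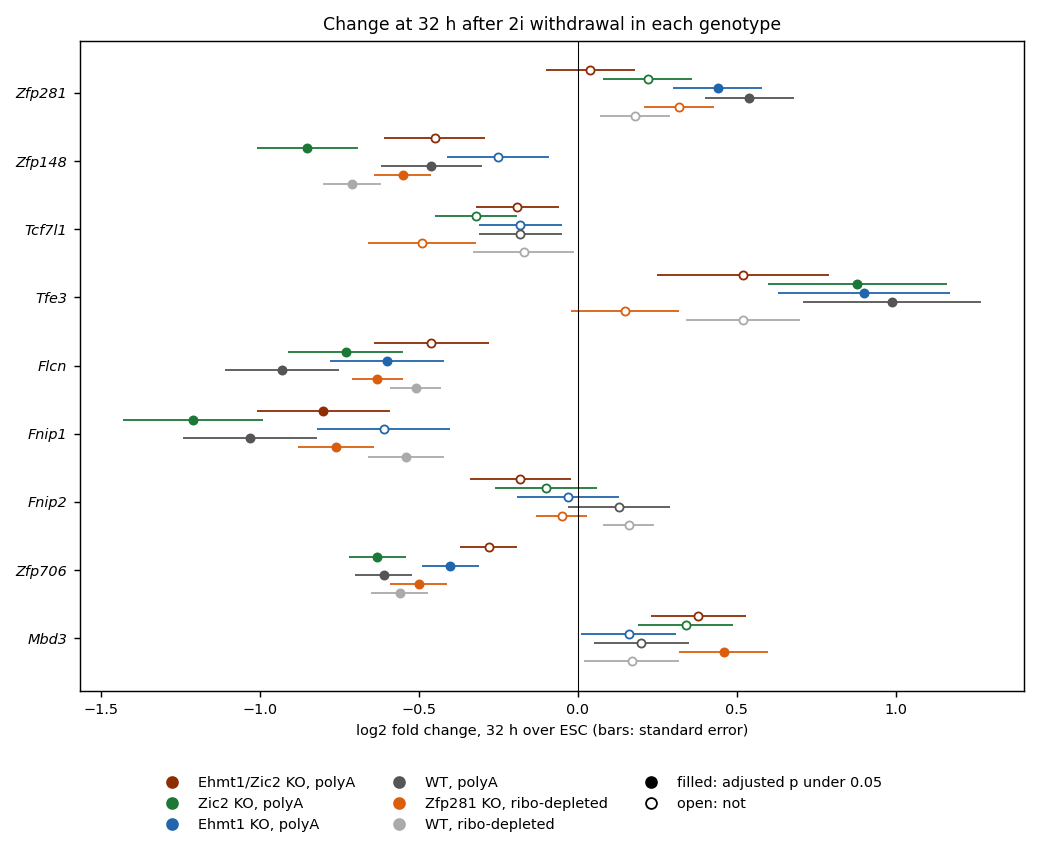
Log2 fold change of each member at 32 h over ESC (x axis, bars are standard errors) in 6 combinations of genotype and set, 2 lines each; filled points have an adjusted p under 0.05. Flcn, Fnip1, Zfp148 and Zfp706 lie below 0 in all 6, and Tfe3, Zfp281 and Mbd3 above 0.

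Between KO and WT cells of a stage, the calls were spread over a few members. In Zfp281 KO cells 1 member was higher and 0 lower at ESC (8.5% and 5.3% of all genes). At 16 h 1 was higher and 1 lower (15.3% and 13.3% of 15139 genes), as at 32 h (16.6% and 11.9%). For Ehmt1/Zic2 KO cells 1 was higher and 1 lower at ESC (20.9% and 18.5%), and 3 and 2 at 32 h (21.4% and 17.8%). In Ehmt1 KO cells 1 was higher and 1 lower at ESC (14.8% and 12.1%), and 3 and 0 at 32 h (15.1% and 11.4%). In Zic2 KO cells 0 of the 9 were called by edgeR or by DESeq2 at either stage, where edgeR called 0.274% of all genes at ESC and 0.0766% at 32 h in either direction. There, 2 members at ESC and 1 at 32 h had an unadjusted p under 0.05.

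**Figure D2:**
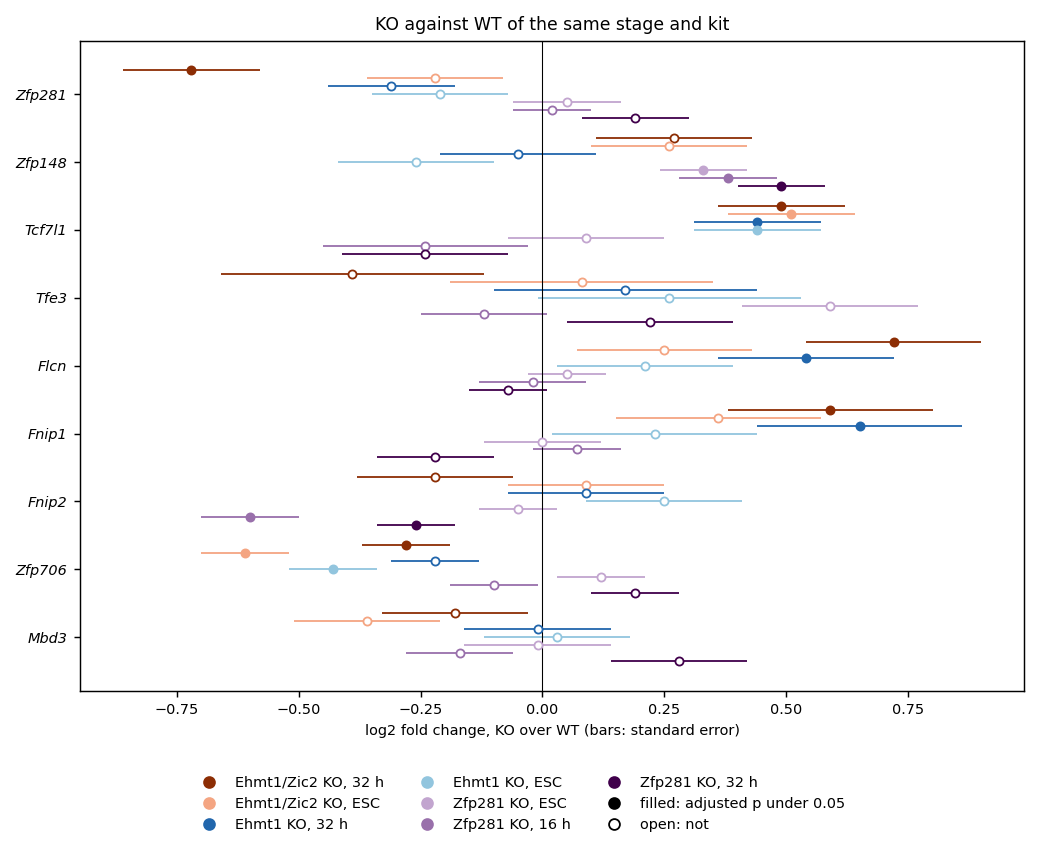
Log2 fold change of each member in KO over WT cells of the same stage and set (x axis, bars are standard errors, 2 lines each); filled points have an adjusted p under 0.05, and Zic2 KO, with 0 members called, is not drawn. Zfp148 is filled in all 3 Zfp281 KO comparisons and Tcf7l1 in all 4 comparisons of Ehmt1 KO or Ehmt1/Zic2 KO cells.

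Zfp281 rose with 2i withdrawal in WT and Ehmt1 KO cells of the polyA set and was lower in Ehmt1/Zic2 KO than in WT cells at 32 h. At 32 h its level was 150 and 155 CPM in Ehmt1/Zic2 KO, 209 and 209 CPM in Zic2 KO and 191 and 214 CPM in Ehmt1 KO libraries, against 254 and 247 CPM in WT libraries. At ESC it was 149 and 147 CPM in Ehmt1/Zic2 KO, 182 and 178 CPM in Zic2 KO and 144 and 154 CPM in Ehmt1 KO libraries, against 141 CPM in Ehmt1_WT and 205 CPM in Zic2_WT. Every KO library lay below both WT libraries at 32 h, with Ehmt1/Zic2 KO the lowest, and at ESC the WT libraries spanned all KO libraries. The log2 fold change in Ehmt1/Zic2 KO over WT cells at 32 h was -0.72 ± 0.14 (SE, adjusted p = 0.0013), and it was called in every alternative tried. Those of Zic2 KO (-0.27 ± 0.13, adjusted p = 0.59) and Ehmt1 KO (-0.31 ± 0.13, adjusted p = 0.11) were not called, and with only the compared groups that of Zic2 KO was -0.26 (adjusted p = 0.0094). No difference at ESC was called, and against Zic2_WT alone it was -0.47 in Ehmt1/Zic2 KO (adjusted p = 0.011) and -0.46 in Ehmt1 KO (adjusted p = 0.016).

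At 32 h over ESC, the log2 fold change of Zfp281 was 0.04 ± 0.14 in Ehmt1/Zic2 KO (adjusted p = 0.87), 0.22 ± 0.14 in Zic2 KO (adjusted p = 0.25), 0.44 ± 0.14 in Ehmt1 KO (adjusted p = 0.032) and 0.54 ± 0.14 in WT cells (adjusted p = 0.0079). The response of Ehmt1/Zic2 KO differed from that of WT by -0.49 ± 0.19 (adjusted p = 0.16), by -0.52 (adjusted p = 0.041) with the replicate block, and by -0.81 (adjusted p = 0.023) without Zic2_WT. Without Ehmt1_WT it was -0.23 (adjusted p = 0.64), and leaving out 1 library gave -0.25 (without Ehmt1_WT at ESC, adjusted p = 0.39) to -0.79 (without Zic2_WT at ESC, adjusted p = 0.005). The rise in WT was not called without Ehmt1_WT (0.27, adjusted p = 0.17), without its ESC library (0.29, adjusted p = 0.053) or without its 32 h library (0.52, adjusted p = 0.05). The rise in Ehmt1 KO was not called without line 1 at ESC (0.38, adjusted p = 0.18), line 2 at ESC (0.47, adjusted p = 0.11) or line 2 at 32 h (0.36, adjusted p = 0.18). With only the compared groups in the fit it was 0.44 in Ehmt1 KO (adjusted p = 0.054) and 0.51 in WT (adjusted p = 0.065).

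**Figure D3:**
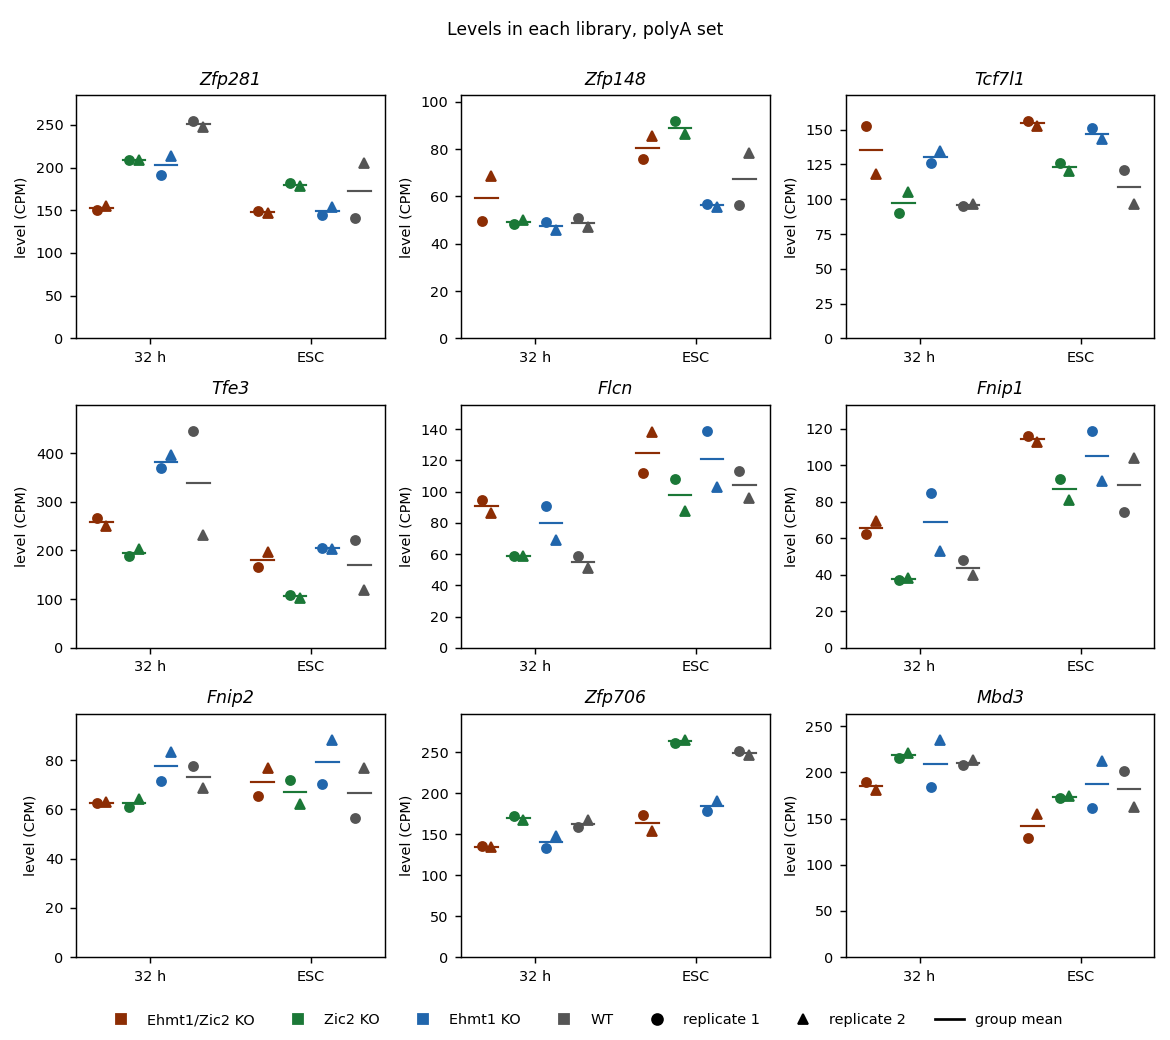
Level of each member in CPM (y axis from 0) in the 16 polyA libraries, at 32 h (left) and ESC (right), with points for libraries and lines for means of 2. Zfp281 at 32 h is 150 and 155 CPM in Ehmt1/Zic2 KO and 254 and 247 CPM in WT, and replicate 2 of WT (Zic2_WT) and both Zic2 KO lines are low for Tfe3.

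In the ribo-depleted set the cells labelled Zfp281 KO held as much Zfp281 RNA as their WT cells, so its level does not check that label. In Zfp281 KO libraries it was 278 and 280 CPM at ESC, 340 and 326 CPM at 16 h, and 350 and 347 CPM at 32 h. In WT libraries it was 238 and 302 CPM at ESC, 317 and 340 CPM at 16 h, and 309 and 303 CPM at 32 h. The groups overlapped at ESC and 16 h, and at 32 h both KO libraries were above both WT libraries. KO over WT gave log2 fold changes of 0.05 ± 0.11 at ESC, 0.02 ± 0.08 at 16 h and 0.19 ± 0.11 at 32 h, with adjusted p-values in that order of 0.78, 0.89 and 0.24. Without Zfp281_WT the difference was 0.17 at ESC (adjusted p = 0.019) and 0.14 at 32 h (adjusted p = 0.031). At 32 h over ESC it was 0.32 ± 0.11 in Zfp281 KO (adjusted p = 0.056, and 0.0073 with the replicate block) and 0.18 ± 0.11 in WT cells (adjusted p = 0.28). In a fit without Zfp281_WT these changes were 0.25 in Zfp281 KO (adjusted p = 7.9e-05) and 0.28 in the line WT (adjusted p = 0.001), and the value in WT rests on 1 library per stage and the spread between KO lines.

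**Figure D4:**
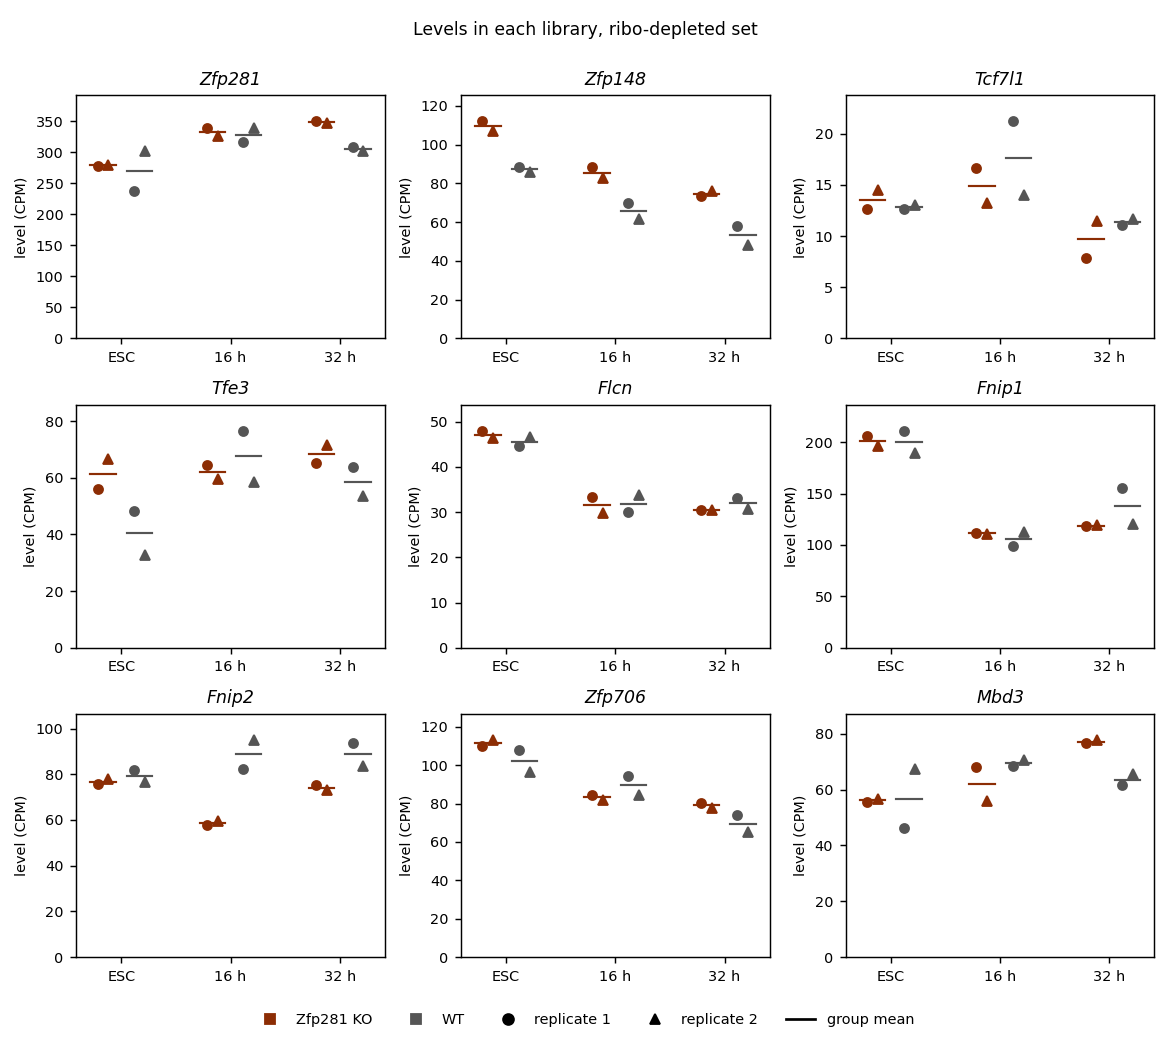
Level of each member in CPM (y axis from 0) in the 12 ribo-depleted libraries at ESC, 16 h and 32 h, with points for libraries and lines for means of 2. Zfp148 in Zfp281 KO lies above WT at all 3 stages, and Fnip2 lies below WT at 16 h and 32 h. The 16 h libraries come from a separate count table.

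Zfp148 was higher in Zfp281 KO than in WT cells at all 3 stages. In Zfp281 KO libraries it was 112 and 107 CPM at ESC, 88.3 and 82.8 CPM at 16 h, and 73.3 and 75.9 CPM at 32 h. In WT libraries it was 88.5 and 85.9 CPM at ESC, 70 and 61.8 CPM at 16 h, and 57.9 and 48.3 CPM at 32 h. The groups did not overlap at any stage, and in both genotypes the later stage was the lower one. KO over WT gave log2 fold changes of 0.33 ± 0.09 at ESC, 0.38 ± 0.1 at 16 h and 0.49 ± 0.09 at 32 h, with adjusted p-values in that order of 0.048, 0.019 and 0.0043. The call at ESC was lost without Zfp281_WT at that stage (0.23, adjusted p = 0.14), without KO line 1 (0.34, adjusted p = 0.39) or line 2 (0.39, adjusted p = 0.31), and in 5 other alternatives (0.26 to 0.37). At 16 h it was lost without KO line 1 (0.33, adjusted p = 0.17) or line 2 (0.42, adjusted p = 0.058). At 32 h it was lost without line 1 (0.47, adjusted p = 0.069) or line 2 (0.46, adjusted p = 0.069).

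From the ESC to the 32 h stage Zfp148 fell in Zfp281 KO (-0.55 ± 0.09, adjusted p = 0.0024) and ribo-depleted WT cells (-0.71 ± 0.09, adjusted p = 0.0005). In the polyA set it was 49.7 and 68.8 CPM at 32 h against 75.8 and 85.4 CPM at ESC in Ehmt1/Zic2 KO. In Zic2 KO it was 48.5 and 50 CPM at 32 h against 91.7 and 86.2 CPM at ESC, and in Ehmt1 KO 49.1 and 45.6 CPM against 56.9 and 55.4 CPM. In WT it was 50.8 and 47.1 CPM at 32 h against 56.4 and 78.2 CPM at ESC. The level at 32 h was below that at ESC in each of the 8 lines. The fall was called in Zic2 KO (-0.85 ± 0.16, adjusted p = 0.0015) and in WT (-0.46 ± 0.16, adjusted p = 0.042). The WT value was -0.22 (adjusted p = 0.34) without Zic2_WT at ESC and -0.15 (adjusted p = 0.63) without that line at both stages. It also lost its call without Ehmt1_WT at 32 h (-0.51, adjusted p = 0.11), without Zic2_WT at 32 h (-0.41, adjusted p = 0.19), with DESeq2 size factors (-0.44, adjusted p = 0.054) and with only the compared groups (-0.48, adjusted p = 0.069). The value in Ehmt1/Zic2 KO was -0.45 ± 0.16 (adjusted p = 0.085), and with the replicate block -0.46 (adjusted p = 0.015).

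Tcf7l1 was higher in Ehmt1/Zic2 KO and in Ehmt1 KO than in WT cells at both stages. At 32 h it was 153 and 118 CPM in Ehmt1/Zic2 KO, 90.3 and 105 CPM in Zic2 KO and 126 and 135 CPM in Ehmt1 KO, against 95.4 and 96.9 CPM in WT libraries. At ESC it was 156 and 153 CPM in Ehmt1/Zic2 KO, 126 and 120 CPM in Zic2 KO and 151 and 143 CPM in Ehmt1 KO, against 121 and 96.4 CPM in WT libraries. All libraries with an Ehmt1 knockout lay above all WT libraries of their stage, and Zic2 KO overlapped with WT. The log2 fold change in Ehmt1/Zic2 KO over WT cells was 0.51 ± 0.13 at ESC and 0.49 ± 0.13 at 32 h, with adjusted p-values in that order of 0.0098 and 0.011. In Ehmt1 KO over WT cells it was 0.44 ± 0.13 at each stage (adjusted p = 0.028 at both). With only the compared groups in the fit both ESC calls were lost, at 0.55 in Ehmt1/Zic2 KO (adjusted p = 0.051) and 0.47 in Ehmt1 KO (adjusted p = 0.069). The 32 h call of Ehmt1 KO was lost in each of the 4 refits that left out a library (0.38 to 0.49, adjusted p of 0.063 to 0.14). Without Zic2_WT at ESC the ESC call was lost in Ehmt1/Zic2 KO (0.37, adjusted p = 0.077) and in Ehmt1 KO (0.31, adjusted p = 0.16). In Ehmt1 KO it was also lost without line 1 (0.41, adjusted p = 0.12) or line 2 (0.49, adjusted p = 0.054). At 32 h the call of Ehmt1/Zic2 KO was lost without Ehmt1_WT (0.48, adjusted p = 0.071), Zic2_WT (0.5, adjusted p = 0.059) or line 1 of the KO (0.3, adjusted p = 0.12).

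No fall of Tcf7l1 at 32 h was called in any genotype of the polyA set. Its log2 fold changes were -0.19 ± 0.13 in Ehmt1/Zic2 KO, -0.32 ± 0.13 in Zic2 KO (adjusted p = 0.086, and 0.036 with the replicate block), -0.18 ± 0.13 in Ehmt1 KO and -0.18 ± 0.13 in WT cells. In the ribo-depleted set Tcf7l1 was low, at 12.6 and 14.5 CPM at ESC, 16.6 and 13.2 CPM at 16 h and 7.82 and 11.5 CPM at 32 h in Zfp281 KO libraries. WT libraries had 12.6 and 13 CPM at ESC, 21.2 and 14 CPM at 16 h and 11.1 and 11.7 CPM at 32 h. The groups overlapped or touched at each stage, and no difference between KO and WT was called, except at 16 h without Zfp281_WT (-0.52, adjusted p = 8e-04, against -0.24). At 32 h over ESC the change in Zfp281 KO was -0.49 ± 0.17 (adjusted p = 0.059), and with the replicate block -0.5 (adjusted p = 0.0024). Per kilobase of exon, Tcf7l1 in WT cells at ESC was 27.7 ± 4.42 CPM in polyA and 3.26 ± 0.0788 CPM in ribo-depleted libraries (SD, n = 2 each), and the kit and the lines cannot be told apart here. Exons of Tcf7l1 overlap the antisense gene Gm15401, and no strand setting is given, so their reads cannot be told apart.

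Of 17 other Tcf/Lef factors and partners, 5 rose and 3 fell in polyA WT cells at 32 h (17.9% and 17.8% of all genes), with a median log2 fold change of -0.11 (all genes 0.01). Axin2, a target of the beta-catenin signalling that the Gsk3 inhibitor of 2i switches on, fell by 2.78 there (adjusted p = 8.9e-06). Axin2 fell by 1.17 in Zfp281 KO (adjusted p = 4.4e-05) and fell by 2.36 in ribo-depleted WT cells (adjusted p = 1e-06), and these responses differed by 1.19 ± 0.14 (adjusted p = 0.0037). Tle1, a corepressor, was higher in Ehmt1/Zic2 KO than in WT cells at 32 h (0.92 ± 0.12, adjusted p = 0.0001).

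Tfe3 was higher at 32 h than at ESC in every polyA line, and the polyA WT lines lay far apart. The rise was called in Zic2 KO, Ehmt1 KO and WT cells, and in Ehmt1/Zic2 KO cells with the replicate block only. At 32 h it was 266 and 251 CPM in Ehmt1/Zic2 KO, 189 and 202 CPM in Zic2 KO and 369 and 396 CPM in Ehmt1 KO, against 446 CPM in Ehmt1_WT and 232 CPM in Zic2_WT. At ESC it was 165 and 196 CPM in Ehmt1/Zic2 KO, 109 and 102 CPM in Zic2 KO and 205 and 204 CPM in Ehmt1 KO, against 222 CPM in Ehmt1_WT and 118 CPM in Zic2_WT. Zic2_WT and both Zic2 KO lines were the lowest at each stage, and Ehmt1_WT was the highest. The log2 fold change at 32 h over ESC was 0.52 ± 0.27 in Ehmt1/Zic2 KO (adjusted p = 0.23), 0.88 ± 0.28 in Zic2 KO (adjusted p = 0.028), 0.9 ± 0.27 in Ehmt1 KO (adjusted p = 0.031) and 0.99 ± 0.28 in WT cells (adjusted p = 0.013). With the replicate block the value in Ehmt1/Zic2 KO was 0.53 (adjusted p = 0.0011). Its difference from the WT response was -0.46 (adjusted p = 0.033) with the block and -0.47 (adjusted p = 0.52) without it. With only the compared groups in the fit the rise in WT was not called (0.98, adjusted p = 0.071). Without the filter on low counts the rise was not called in Zic2 KO (0.89, adjusted p = 0.076) or Ehmt1 KO (0.9, adjusted p = 0.09). The rise in WT was 0.97 (adjusted p = 0.0022) without Ehmt1_WT and 1.00 (adjusted p = 0.0012) without Zic2_WT. Leaving out 1 library unbalanced the lines and gave 0.44 to 1.52 in WT (adjusted p of 0.0021 to 0.24). The calls in Zic2 KO (0.78 to 0.93) and Ehmt1 KO (0.85 to 0.95) were lost in each of their 4 refits that left out a library, with adjusted p of 0.063 to 0.15.

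The difference between the WT lines was shared by the neighbours of Tfe3 on the X chromosome (GRCm38 chrX:7762530-7775202). For Tfe3 the log2 ratio of Ehmt1_WT over Zic2_WT was 0.94 at 32 h and 0.91 at ESC. For all 18 measured genes within 200 kb, among them Hdac6, Otud5 and Pim2, it was 0.7 to 1.3 at 32 h and 0.87 to 1.54 at ESC. The 37 X-linked genes between 5 and 10 Mb had a median of 0.99 at 32 h and 1.03 at ESC, whereas each of the 16 other windows of 5 Mb with enough genes had a median between -0.33 and 0.13. Within the window 34 genes were above 0 at both stages. Xk, Cybb and Dynlt3, at 1.52 to 1.89 Mb from Tfe3, were at -0.09 to 0.09 at 32 h and -0.8 to 0.11 at ESC. Of 379 X-linked genes with at least 5 CPM, 33 were at least 1.5 times higher in Ehmt1_WT than in Zic2_WT at both stages, 31 of them in that window, and 0 were as much lower. The other 2 were Tmlhe (1.25 at 32 h and 1.26 at ESC) and Vamp7 (1.57 and 1.24). Whether their listed coordinates count along the assembled chromosome was not checked, so their distance from Tfe3 is not known here. Set against the median library of a stage, the window had a median of -0.86 to -0.71 in both Zic2 KO lines and Zic2_WT. In the Ehmt1/Zic2 KO lines, the Ehmt1 KO lines and Ehmt1_WT it had a median of 0.11 to 0.28. The cause of the low window was not tested.

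**Figure D5:**
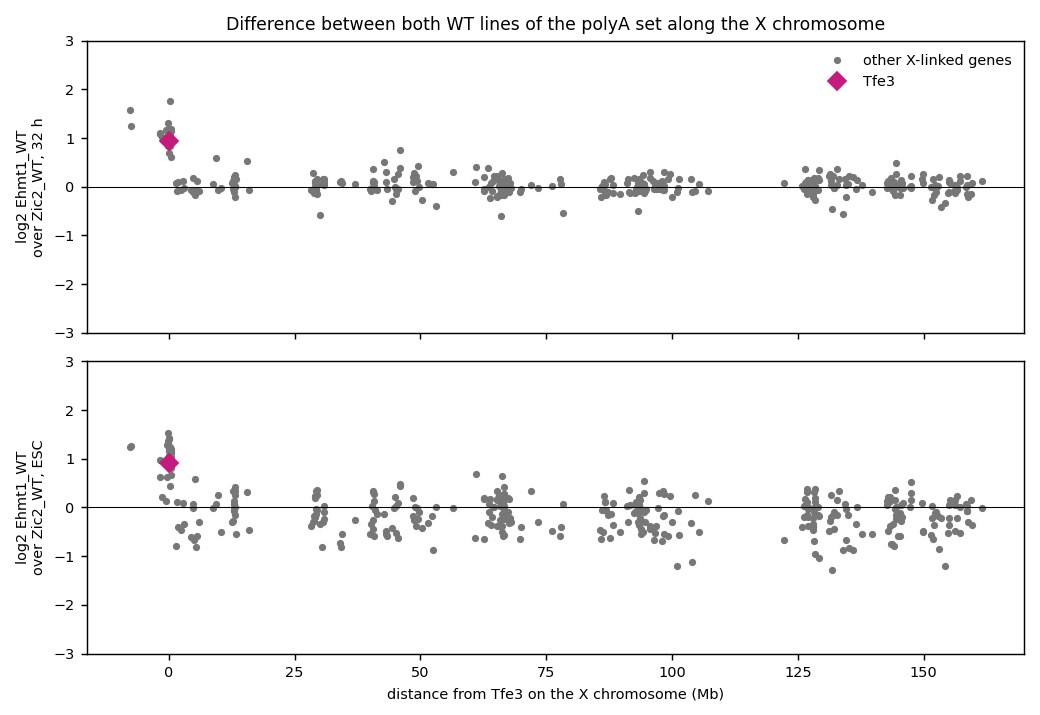
Log2 ratio of Ehmt1_WT over Zic2_WT in the polyA set (y axis) for 379 X-linked genes with at least 5 CPM, against distance from Tfe3 in Mb (x axis), at 32 h (top) and ESC (bottom), 1 library per line and stage. Tfe3 (diamond, 0.94 and 0.91) lies among neighbours that are all above 0 within 200 kb, and other genes from 1.52 Mb onwards scatter around 0. The points at -7.52 and -7.74 Mb are Tmlhe and Vamp7, drawn at listed coordinates that were not checked against the assembled chromosome.

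Comparisons of Tfe3 with WT differed with the WT line used, each of which is 1 library per stage. Against both lines none was called, with log2 fold changes of 0.08 ± 0.27 at ESC and -0.39 ± 0.27 at 32 h in Ehmt1/Zic2 KO, -0.69 ± 0.28 and -0.8 ± 0.27 in Zic2 KO, and 0.26 ± 0.27 and 0.17 ± 0.27 in Ehmt1 KO. Tfe3 in Ehmt1/Zic2 KO was -0.31 at ESC (adjusted p = 0.078) and -0.79 at 32 h (adjusted p = 0.0019) against Ehmt1_WT alone. Against Zic2_WT alone the values were 0.6 at ESC (adjusted p = 0.0087) and 0.16 at 32 h (adjusted p = 0.38). The Zic2 KO values were -1.07 at ESC (adjusted p = 0.0093) and -1.19 at 32 h (adjusted p = 0.0082) against Ehmt1_WT alone. Against Zic2_WT alone it was -0.16 and -0.25 (adjusted p = 1 at both stages). In Ehmt1 KO it was -0.12 at ESC (adjusted p = 0.51) and -0.22 at 32 h (adjusted p = 0.25) against Ehmt1_WT alone, and 0.79 (adjusted p = 0.0034) and 0.72 (adjusted p = 0.0055) against Zic2_WT alone.

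In Zfp281 KO libraries Tfe3 was 56.2 and 66.7 CPM at ESC, 64.6 and 59.6 CPM at 16 h, and 65.2 and 71.6 CPM at 32 h. In WT libraries it was 48.4 CPM in WT and 32.8 CPM in Zfp281_WT at ESC, 76.6 and 58.5 CPM at 16 h, and 63.7 and 53.4 CPM at 32 h. Zfp281_WT was the lower WT line at each stage. KO over WT gave log2 fold changes of 0.59 ± 0.18 at ESC, -0.12 ± 0.13 at 16 h and 0.22 ± 0.17 at 32 h, with adjusted p-values in that order of 0.059, 0.52 and 0.38. Without Zfp281_WT the value at ESC was 0.28 (adjusted p = 0.03), and without the line WT it was 1.03 (adjusted p = 0.00072). At 16 h it was -0.3 (adjusted p = 0.012) without Zfp281_WT. X-linked genes as a whole had a median of 0.41, 0.36 and 0.25 in the same comparisons, against -0.05, -0.02 and -0.08 for autosomal genes, and their part in the values of Tfe3 was not tested. Its change at 32 h over ESC was 0.15 ± 0.17 in Zfp281 KO cells (adjusted p = 0.62). In ribo-depleted WT cells it was 0.52 ± 0.18 (adjusted p = 0.06), and 0.54 (adjusted p = 6.2e-05) with the replicate block. The difference between these responses was -0.37 ± 0.25 (adjusted p = 0.63), or -0.38 (adjusted p = 0.033) with the block.

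Flcn and Fnip1, whose products form the complex that holds Tfe3 outside the nucleus, fell at 32 h in WT cells and were higher in Ehmt1/Zic2 KO and Ehmt1 KO than in WT cells at that stage. Flcn was 94.4 and 86.6 CPM at 32 h against 112 and 138 CPM at ESC in Ehmt1/Zic2 KO, and 59 and 59.1 CPM against 108 and 87.4 CPM in Zic2 KO. It was 90.8 and 68.9 CPM at 32 h against 139 and 103 CPM at ESC in Ehmt1 KO, and 58.7 and 51.4 CPM against 113 and 96 CPM in WT. Fnip1 was 62.3 and 69.4 CPM at 32 h against 116 and 113 CPM at ESC in Ehmt1/Zic2 KO, and 37.2 and 38.1 CPM against 92.7 and 80.9 CPM in Zic2 KO. It was 85 and 52.8 CPM at 32 h against 119 and 91.4 CPM at ESC in Ehmt1 KO, and 47.9 and 39.7 CPM against 74.2 and 104 CPM in WT. For both genes every library of a genotype at 32 h lay below every library of that genotype at ESC. At 32 h the libraries with an Ehmt1 knockout lay above those of WT and Zic2 KO. Over the 16 polyA libraries the Pearson correlation of log2 CPM between Flcn and Fnip1 was 0.93, given as a description of libraries that share lines and stages. Both genes lie on chromosome 11, and the part of this in the correlation was not tested.

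At 32 h over ESC, Flcn fell by 0.73 in Zic2 KO (adjusted p = 0.0072), by 0.6 in Ehmt1 KO (adjusted p = 0.028) and by 0.93 in WT (adjusted p = 0.0014), with an SE of 0.18 for each. Its change in Ehmt1/Zic2 KO cells was -0.46 ± 0.18 (adjusted p = 0.1, and 0.0077 with the replicate block). Fnip1 fell by 0.8 in Ehmt1/Zic2 KO (SE 0.21, adjusted p = 0.024), by 1.21 in Zic2 KO (SE 0.22, adjusted p = 0.00096) and by 1.03 in WT (SE 0.21, adjusted p = 0.0024). In Ehmt1 KO cells it was -0.61 ± 0.21 (adjusted p = 0.055, and 0.006 with the block). With only the compared groups in the fit, the fall of Flcn in Ehmt1 KO was not called (-0.6, adjusted p = 0.14). The fall of Fnip1 in Ehmt1/Zic2 KO was lost in each of 4 refits that left out a library (-0.88 to -0.74, adjusted p of 0.05 to 0.11). In WT it was not called without Zic2_WT (-0.63, adjusted p = 0.14). The fall of Flcn in Ehmt1 KO was lost without the ESC library of line 1 (-0.38, adjusted p = 0.22) or the 32 h library of line 2 (-0.41, adjusted p = 0.21). In Zic2 KO it was lost without line 1 at ESC (-0.61, adjusted p = 0.065).

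Flcn at 32 h was higher than in WT by 0.72 ± 0.18 in Ehmt1/Zic2 KO (adjusted p = 0.0066) and by 0.54 ± 0.18 in Ehmt1 KO (adjusted p = 0.04). Fnip1 was higher by 0.59 ± 0.21 (adjusted p = 0.043) in Ehmt1/Zic2 KO and by 0.65 ± 0.21 (adjusted p = 0.038) in Ehmt1 KO. With only the compared groups in the fit, both calls in Ehmt1 KO were lost (Flcn 0.55, adjusted p = 0.061, and Fnip1 0.67, adjusted p = 0.11). Without line 1 of Ehmt1 KO the differences in that genotype were 0.32 for Flcn (adjusted p = 0.31) and 0.27 for Fnip1 (adjusted p = 0.43). Without Ehmt1_WT they were 0.63 for Flcn (adjusted p = 0.088) and 0.79 for Fnip1 (adjusted p = 0.075), and without Zic2_WT 0.44 and 0.52 (adjusted p = 0.22 for each). The call of Fnip1 in Ehmt1/Zic2 KO was lost in each of 4 refits that left out a library (0.46 to 0.73, adjusted p of 0.071 to 0.23), and that of Flcn without Zic2_WT (0.62, adjusted p = 0.065). Summed neural markers at 32 h were 197 and 259 CPM in Ehmt1/Zic2 KO and 227 and 217 CPM in Ehmt1 KO, against 173 and 190 CPM in WT libraries. At ESC they were 314 and 364 CPM in Ehmt1/Zic2 KO and 303 and 264 CPM in Ehmt1 KO, against 125 and 130 CPM in WT libraries. Of 6 neural markers tested, 2 were higher and 2 lower in Ehmt1 KO at each stage (14.8% and 12.1% of all genes at ESC, 15.1% and 11.4% at 32 h). In Ehmt1/Zic2 KO 2 were higher and 2 lower at ESC (20.9% and 18.5% of all genes), and 2 and 3 at 32 h (21.4% and 17.8%). Neurog2 and Hes5 stayed below 1 CPM in all libraries. Sox1, an early neural factor gene, was at 0.884 to 5.42 CPM in Ehmt1 KO against 34.9 to 52.3 CPM in WT libraries at 32 h. Other markers went the other way there, with Tubb3 at 121 to 130 CPM in Ehmt1 KO against 62.2 to 66.7 CPM in WT. Nes was at 52.4 to 64.5 CPM against 20 to 23.5 CPM. The part of neural marker RNA in these results was not tested.

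In the ribo-depleted set Fnip1 was 206 and 196 CPM at ESC, 112 and 111 CPM at 16 h and 118 and 119 CPM at 32 h in Zfp281 KO libraries. WT libraries had 211 and 189 CPM at ESC, 99 and 113 CPM at 16 h and 155 and 120 CPM at 32 h. Flcn was 48 and 46.3 CPM at ESC, 33.4 and 29.8 CPM at 16 h and 30.5 and 30.4 CPM at 32 h in Zfp281 KO libraries. WT libraries had 44.6 and 46.6 CPM at ESC, 30.1 and 33.7 CPM at 16 h and 33.1 and 30.8 CPM at 32 h. For both genes the ESC libraries were the highest of each genotype, with the 16 h levels coming from a separate table. At 32 h over ESC, Fnip1 fell by 0.76 in Zfp281 KO (adjusted p = 0.0014) and by 0.54 in WT (adjusted p = 0.0074), with an SE of 0.12 each. Flcn fell by 0.63 in Zfp281 KO (adjusted p = 0.00048) and by 0.51 in WT (adjusted p = 0.0013), with an SE of 0.08 each. With only the compared groups in the fit the fall of Fnip1 in WT was -0.58 (adjusted p = 0.07). No difference of either gene between Zfp281 KO and WT was called at any stage with all libraries. For Fnip1 at 32 h, at -0.22 (adjusted p = 0.22), it was called without the 32 h library of Zfp281_WT (-0.39, adjusted p = 0.018), without that line (-0.42, adjusted p = 1.3e-05) and with only the compared groups (-0.29, adjusted p = 0.046).

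Fnip2, the other partner of Flcn, had no called change at 32 h over ESC in either set, except with the replicate block in ribo-depleted WT cells (0.16, adjusted p = 0.046, and 0.21 without it). It was lower in Zfp281 KO than in WT cells after 2i withdrawal, at 75.9 and 77.7 CPM at ESC, 57.9 and 59.4 CPM at 16 h and 75.2 and 73.1 CPM at 32 h in KO libraries. In WT libraries it was 82 and 76.7 CPM at ESC, 82.5 and 94.9 CPM at 16 h and 93.6 and 83.8 CPM at 32 h. The groups overlapped at ESC and stood apart at 16 h and 32 h. KO over WT gave log2 fold changes of -0.05 ± 0.08 at ESC, -0.6 ± 0.1 at 16 h and -0.26 ± 0.08 at 32 h, with adjusted p-values in that order of 0.72, 0.0028 and 0.043. The 16 h call held in each refit that left out a library (-0.69 to -0.49). The 32 h call was lost without the line WT (-0.17, adjusted p = 0.2), without KO line 1 (-0.32, adjusted p = 0.17) or line 2 (-0.24, adjusted p = 0.32), with DESeq2 size factors (-0.29, adjusted p = 0.058) and without the filter on low counts (-0.21, adjusted p = 0.31). In the polyA set Fnip2 lay between 56.3 and 88.1 CPM in all 16 libraries with no call in any comparison. Without Zic2_WT at ESC its difference in Ehmt1 KO at that stage was 0.52 (adjusted p = 0.048), against 0.25 with it. Its group means there spanned 0.33 on the log2 scale, the least of the 9 members, against 1.59 for Fnip1 and 1.85 for Tfe3.

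Among 21 other genes of the Flcn, Fnip and Rag pathway, 2 rose and 5 fell in polyA WT cells at 32 h, where 17.9% and 17.8% of all genes did (median -0.13, all genes 0.01). Rragb, an X-linked Rag GTPase gene, rose there by 0.81 ± 0.14 on the log2 scale (adjusted p = 0.00064) and in ribo-depleted WT cells by 0.8 ± 0.08 (adjusted p = 7.7e-05). In Zfp281 KO over WT cells at 32 h 1 gene was higher and 5 lower, against 16.6% and 11.9% of all genes (median 0.08, all genes -0.07). Rragd, another Rag GTPase gene, was at -1.23 ± 0.08 (adjusted p = 1.8e-05) and Rragb at -0.91 ± 0.08 (adjusted p = 5.5e-05). In Ehmt1/Zic2 KO over WT cells at 32 h 4 were higher and 6 lower, against 21.4% and 17.8% of all genes (median -0.02, all genes 0.02). Among them were Rragb at -1.62 ± 0.14 (adjusted p = 5.5e-06) and Tsc2, a brake on Rheb, at -0.51 ± 0.1 (adjusted p = 0.0014). Mitf, another MiT/Tfe gene, fell by 2.56 in polyA WT cells at 32 h (SE 0.18, adjusted p = 8.3e-07). At 32 h it was higher in Ehmt1/Zic2 KO than in WT cells (1.68 ± 0.18, adjusted p = 2.5e-05), as was Tfeb of the same family (2.24 ± 0.38, adjusted p = 0.00064).

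Lysosomal genes of the CLEAR network, known targets of Tfeb and Tfe3, were mostly lower at 32 h. In polyA WT cells 1 of 29 measured genes rose and 20 fell, where 17.9% and 17.8% of all genes did (median -0.86, all genes 0.01). In ribo-depleted WT cells 1 of 31 rose and 16 fell, against 15% and 11% of all genes (median -0.43, all genes 0.02). Ctsa, the cathepsin A gene, fell by 1.76 (SE 0.15, adjusted p = 3.4e-06) in polyA WT cells. In Ehmt1/Zic2 KO over WT cells at 32 h 12 were higher and 2 lower, against 21.4% and 17.8% of all genes (median 0.18, all genes 0.02). The cathepsin D gene Ctsd was at 1.14 ± 0.14 there (adjusted p = 5.6e-05). At ESC 3 were higher and 7 lower (20.9% and 18.5% of all genes, median -0.19, all genes 0). In Ehmt1 KO over WT cells at 32 h 12 were higher and 1 lower, against 15.1% and 11.4% of all genes (median 0.16, all genes 0), with Ctsd at 0.92 ± 0.14 (adjusted p = 0.0004). At ESC 3 were higher and 6 lower (14.8% and 12.1% of all genes, median -0.15, all genes -0.01). For Zfp281 KO over WT cells 4 were higher and 3 lower at ESC (8.5% and 5.3% of all genes, median 0.2, all genes -0.04). At 16 h the counts were 11 and 4 (15.3% and 13.3% of all genes, median 0.27, all genes -0.01), and at 32 h 9 and 9 (16.6% and 11.9% of all genes, median 0.08, all genes -0.07).

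Zfp706 fell at 32 h and was lower in Ehmt1/Zic2 KO and Ehmt1 KO than in WT cells at ESC. At 32 h it was 136 and 134 CPM in Ehmt1/Zic2 KO, 173 and 168 CPM in Zic2 KO and 133 and 148 CPM in Ehmt1 KO, against 159 and 167 CPM in WT libraries. At ESC it was 174 and 154 CPM in Ehmt1/Zic2 KO, 262 and 265 CPM in Zic2 KO and 178 and 191 CPM in Ehmt1 KO, against 252 and 247 CPM in WT libraries. All libraries with an Ehmt1 knockout lay below all others of their stage, and Zic2 KO lay above WT. The log2 fold change in Ehmt1/Zic2 KO over WT cells was -0.61 ± 0.09 at ESC and -0.28 ± 0.09 at 32 h, with adjusted p-values in that order of 0.00027 and 0.028. In Ehmt1 KO over WT cells it was -0.43 ± 0.09 at ESC and -0.22 ± 0.09 at 32 h, with adjusted p-values of 0.0037 and 0.093. The ESC calls held in each refit that left out a library, and that of Ehmt1 KO was lost with only the compared groups (-0.4, adjusted p = 0.072). The 32 h call of Ehmt1/Zic2 KO was lost in each of 4 refits (-0.32 to -0.24, adjusted p of 0.073 to 0.16).

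At 32 h over ESC, Zfp706 fell by 0.63 in Zic2 KO (adjusted p = 0.0002), by 0.4 in Ehmt1 KO (adjusted p = 0.0072) and by 0.61 in polyA WT cells (adjusted p = 0.00023), with an SE of 0.09 each. Its change in Ehmt1/Zic2 KO was -0.28 ± 0.09 (adjusted p = 0.055, and 0.025 with the replicate block). The fall in Ehmt1 KO was lost without line 1 at 32 h (-0.33, adjusted p = 0.063) and with only the compared groups (-0.4, adjusted p = 0.069). In Zfp281 KO libraries Zfp706 was 110 and 113 CPM at ESC, 84.5 and 81.9 CPM at 16 h and 80.5 and 77.8 CPM at 32 h. In WT libraries of that set it was 108 and 96.3 CPM at ESC, 94.6 and 84.3 CPM at 16 h and 73.8 and 65.1 CPM at 32 h. It fell by 0.5 in Zfp281 KO (SE 0.09, adjusted p = 0.0037) and by 0.56 in WT cells (SE 0.09, adjusted p = 0.0016), and no difference between KO and WT was called with all libraries. Without the line WT at ESC it was 0.33 (adjusted p = 0.014), against 0.12. The call of the fall in KO was lost without line 1 at ESC (-0.61, adjusted p = 0.059), line 2 at ESC (-0.57, adjusted p = 0.075) or line 2 at 32 h (-0.53, adjusted p = 0.05). Exons of Zfp706 overlap the antisense gene Gm26766, and without a strand setting their reads cannot be told apart.

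No difference of Mbd3 between KO and WT cells was called at any stage with all libraries. In Zfp281 KO it was 0.29 at 32 h and 0.22 at ESC in the fit without Zfp281_WT, against 0.28 and -0.01 with it. For Ehmt1/Zic2 KO at ESC it was -0.36, and called without Zic2_WT at ESC (-0.49, adjusted p = 0.045) or KO line 2 (-0.51, adjusted p = 0.037). In the polyA set it was 190 and 181 CPM at 32 h and 129 and 155 CPM at ESC in Ehmt1/Zic2 KO, and 216 and 221 CPM and 172 and 175 CPM in Zic2 KO. In Ehmt1 KO it was 184 and 235 CPM at 32 h and 162 and 212 CPM at ESC, against 208 and 213 CPM and 202 and 163 CPM in WT. In Zfp281 KO libraries it was 55.6 and 56.7 CPM at ESC, 68.1 and 55.9 CPM at 16 h and 76.7 and 77.7 CPM at 32 h. In WT libraries of that set it was 46.2 and 67.2 CPM at ESC, 68.6 and 70.5 CPM at 16 h and 61.7 and 65.5 CPM at 32 h. Each line of every genotype was higher at 32 h than at ESC except Zfp281_WT. With all libraries in the fit and no block, the rise was called in Zfp281 KO alone (0.46 ± 0.14, adjusted p = 0.045). There it was lost in each of 4 refits that left out a library (0.35 to 0.4, adjusted p of 0.27 to 0.36), with DESeq2 size factors (0.41, adjusted p = 0.065) and without the filter on low counts (0.37, adjusted p = 0.083). With the replicate block it was called in Ehmt1/Zic2 KO (0.39, adjusted p = 0.013) and Zic2 KO (0.34, adjusted p = 0.017), against 0.38 ± 0.15 and 0.34 ± 0.15 (adjusted p = 0.11 for each) without it. With only the compared groups the rise was also called in Zic2 KO (0.33, adjusted p = 0.00034). In ribo-depleted WT cells the change was 0.17 ± 0.15 (adjusted p = 0.5). Without Zfp281_WT it was 0.32, from 1 WT library per stage.

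Of 16 other NuRD subunits, 0 were higher and 2 lower in Zfp281 KO than in WT cells at ESC, where 8.5% and 5.3% of all genes were (median -0.12, all genes -0.04). At 16 h 1 was higher and 9 lower, against 15.3% and 13.3% of all genes (median -0.31, all genes -0.01), among them the remodeller gene Chd3 (-1.11 ± 0.17, adjusted p = 0.0021). At 32 h 2 were higher and 4 lower, against 16.6% and 11.9% (median -0.1, all genes -0.07). In Ehmt1/Zic2 KO over WT cells 2 were higher and 6 lower at ESC, against 20.9% and 18.5% (median -0.22, all genes 0). At 32 h 0 were higher and 7 lower, against 21.4% and 17.8% (median -0.3, all genes 0.02), among them Mta3 (-0.7 ± 0.11, adjusted p = 0.00047).

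With all libraries, no member had a called difference in its 32 h response between a KO genotype and WT by edgeR without the block or by DESeq2. The share of all genes called in these tests was 4.15% for Zfp281 KO, 5.29% for Ehmt1/Zic2 KO, 0% for Zic2 KO and 1.86% for Ehmt1 KO. There were 2 members with an unadjusted p under 0.05 in Ehmt1/Zic2 KO and 0 in the other 3. With the block, Zfp281 and Tfe3 were called in Ehmt1/Zic2 KO and Tfe3 in Zfp281 KO, as given above. Refits that left out WT libraries also gave calls, which rest on 1 WT library at a stage. Without Zfp281_WT, the difference of Fnip1 in Zfp281 KO was -0.28, against -0.22 with it. Without the line WT at ESC, those of Mbd3 and Tfe3 in Zfp281 KO were 0.45 and -0.77, against 0.29 and -0.37. An effect called in one genotype and not in another, as for Tcf7l1, Flcn and Fnip1 in Ehmt1 KO and Zic2 KO, was not tested for its difference.

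Per kilobase of exon, the 9 genes covered a wide range of levels in WT cells. In polyA WT cells at 32 h Mbd3 was highest (106 ± 1.89 CPM per kb, SD, n = 2), followed by Zfp281 (50.8 ± 0.973), Tfe3 (36.6 ± 16.3), Zfp706 (32.7 ± 1.15) and Tcf7l1 (24.5 ± 0.285). Below them came Flcn (12.7 ± 1.2), Fnip2 (8.73 ± 0.763), Fnip1 (6.15 ± 0.819) and Zfp148 (4.72 ± 0.25). Tfe3 overlapped with its neighbours in that order, since its WT lines lay apart, and the other neighbours stood apart by more than their SDs. In ribo-depleted WT cells at 32 h Zfp281 was highest (62 ± 0.958 CPM per kb), followed by Mbd3 (32 ± 1.36), Fnip1 (19.3 ± 3.47), Zfp706 (13.9 ± 1.24) and Fnip2 (10.6 ± 0.828). Below them came Flcn (7.4 ± 0.367), Tfe3 (6.33 ± 0.788), Zfp148 (5.11 ± 0.656) and Tcf7l1 (2.91 ± 0.105). Of these, Flcn and Tfe3 differed by less than the sum of their SDs, as did Tfe3 and Zfp148.

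The genes whose level followed a member most closely over the 16 polyA libraries, out of 10344 compared, were looked up for the 3 members with the widest range of group means. For Tfe3 they were Suv39h1 (Pearson r of log2 CPM 0.97, and 0.95 over 8 ribo-depleted libraries), Otud5 (0.93 and 0.95) and Nsun2 (0.92 and 0.59). Suv39h1 and Otud5 lie 0.299 and 0.089 Mb from Tfe3, in the X-chromosome window that differed between the polyA lines. For Fnip1 they were Atxn3 (0.97 and 0.81), Gna13 (0.96 and 0.87) and Myh13 (0.96 and 0.8), of which the last pair lie on chromosome 11 like Fnip1. For Flcn they were Mfsd11 (0.98 and 0.84), Dpp7 (0.97 and 0.85) and Grn (0.96 and 0.96). Mfsd11 and Grn lie on chromosome 11 like Flcn. These libraries share lines, stages and genotypes, and the correlations are descriptions.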

How the data were processed

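Libraries of Zfp281 KO cells and of the WT lines beside them were made from ribosome-depleted RNA, and all others from mRNA, per the labels' protocols. The authors deposited whole-number counts per Entrez gene, in 1 table for ESC and 32 h and another for 16 h. The submitters' processing notes name the build GRCm38 (mm10) and edgeR. For the aligner, the counter, the annotation and the strand setting the entry is "not given in the sources used here". Columns were matched to samples by title, and 0 were left over. Symbols came from RefSeq, where 24061 IDs had a match and 55 had none, and exonic lengths from GENCODE.

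Separate fits held the polyA libraries, the ribo-depleted libraries of ESC and 32 h, and those of 16 h. The filterByExpr function kept genes with a minimum count of 10 and a minimum total of 15, and TMM scaled the libraries. Comparisons used the quasi-likelihood F-test of edgeR (robust fit). Its p-values were adjusted by the Benjamini-Hochberg method over all genes of the fit, with a call under 0.05, and are those given where no other tool is named. SE is the size of the log2 fold change over the square root of F. Software versions were DESeq2 1.42.0, limma 3.58.1, edgeR 4.0.16 and R 4.3.3, and the fits were tested on simulated data with 200 changed genes.

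The same lines were sampled at both stages, so a replicate block on the line was fitted as an alternative. The deviations of a line from its group mean at ESC and 32 h correlated at 0.05 in Zfp281 KO, 0.88 in ribo-depleted WT, 0.53 in Ehmt1/Zic2 KO, 0.18 in Zic2 KO, 0.46 in Ehmt1 KO and 0.05 in polyA WT.

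All 9 members are named in every comparison. Of 15 lists with 206 genes, those named are among the 4 with the smallest adjusted p of the genes called in that comparison, and not every one of the 4 is named. The genes most like a member were found by Pearson correlation among genes of at least 5 CPM. Sox1, Tubb3, Nes and the neighbours of Tfe3 were named after their values were seen. The members and lists were chosen with earlier results of these data known. The fits without Ehmt1_WT or Zic2_WT were added after Tfe3 was seen to differ between these lines.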

Additional observations from a re-analysis of the deposited data

How the results depend on the processing

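Each comparison was recomputed for the 9 members, which gave 42 called values of 171. Of these 42, 4 lost their call with DESeq2 size factors, 7 without the filter on low counts and 1 with DESeq2, and none turned its sign in any alternative. With only the compared groups in the fit 13 of 40 lost their call. Leaving out 1 library ended 67 of 168 recomputed calls, and 25 of the 42 values lost their call in at least 1 such refit. The cause of these moves was not tested, except that such refits have fewer samples. With the replicate block, which pairs a line's stages, 0 of 25 were lost. Counts of members called that moved follow, with the count as reported in brackets. With the replicate block they were 6 (1) for the stage response of Ehmt1/Zic2 KO, 2 (0) for its difference from WT and 1 (0) for that of Zfp281 KO, and the block ended no other call. With DESeq2 they were 2 (1) for the stage response of Ehmt1/Zic2 KO and 0 (1) for Zfp281 KO at ESC. DESeq2 size factors gave Zfp281 KO 1 (2) at 32 h and 0 (1) at ESC. A joint fit of 12 ribo-depleted libraries gave it 0 (1) at ESC. Without the filter, Ehmt1/Zic2 KO had 3 (5) at 32 h, and Zfp281 KO had 1 (2) at 32 h and 0 (1) at ESC, where Mbd3 was 0.06 (-0.01). With only the compared groups, the stage response had 1 (4) in Ehmt1 KO, 8 (5) in Zic2 KO and 3 (6) in polyA WT. Against WT, Ehmt1 KO then had 1 (3) at 32 h and 0 (2) at ESC, Ehmt1/Zic2 KO 1 (2) at ESC, Zic2 KO 1 (0) at 32 h and Zfp281 KO 0 (1) at ESC, where Zfp281 was -0.02 (0.05). Without Ehmt1_WT, Ehmt1 KO had 1 (3) at 32 h and 4 (2) at ESC, and Ehmt1/Zic2 KO 2 (5) and 4 (2), while Tfe3 in Ehmt1/Zic2 KO at 32 h was 0.16 (-0.39) and Zfp281 in Zic2 KO at ESC -0.19 (0.06). Without Zfp281_WT, WT had 7 (4) in its stage response, and Zfp281 KO had 1 (0) in the difference, 5 (2) at 32 h and 4 (1) at ESC, where Mbd3 was 0.22 (-0.01) and Zfp706 -0.02 (0.12). Without Zic2_WT, Ehmt1/Zic2 KO had 1 (0) in the difference and 3 (5) at 32 h, Ehmt1 KO 0 (3) at 32 h and 1 (2) at ESC, and Zic2 KO 1 (0) at each stage. Tfe3 was then -0.22 (0.17) at 32 h and -0.12 (0.26) at ESC in Ehmt1 KO and -0.31 (0.08) at ESC in Ehmt1/Zic2 KO, and Zfp281 at ESC 0.08 (-0.21) in Ehmt1 KO and 0.07 (-0.22) in Ehmt1/Zic2 KO. Leaving out 1 library gave stage responses with 3 to 4 members (5) in Zfp281 KO, 0 to 2 (1) in Ehmt1/Zic2 KO, 3 to 4 (5) in Zic2 KO and 1 to 3 (4) in Ehmt1 KO, and differences with 0 to 2 (0) in Zfp281 KO and 0 to 1 (0) in Ehmt1/Zic2 KO. Against WT it gave Zfp281 KO 0 to 3 (1) at ESC, 1 to 4 (2) at 16 h and 0 to 3 (2) at 32 h, Ehmt1/Zic2 KO 2 to 3 (5) at 32 h, and Ehmt1 KO 0 to 2 (3) at 32 h and 1 to 3 (2) at ESC. Values without a call that changed sign there were Mbd3 in the WT ribo-depleted response (-0.08 to 0.38) and in Zfp281 KO at ESC (-0.14 to 0.2), where Zfp706 was -0.04 to 0.33. Tfe3 was -0.99 to 0.08 in the response difference of Ehmt1/Zic2 KO, -0.79 to 0.16 at 32 h and -0.29 to 0.6 at ESC in Ehmt1/Zic2 KO, -0.22 to 0.72 and -0.09 to 0.79 in Ehmt1 KO, and -0.3 to 0.09 in Zfp281 KO at 16 h, where Tcf7l1 was -0.52 to 0.09 and Zfp281 -0.03 to 0.07. Zfp281 at ESC was -0.47 to 0.09 in Ehmt1/Zic2 KO, -0.46 to 0.11 in Ehmt1 KO and -0.19 to 0.39 in Zic2 KO. Counts of all genes called also moved by over 1.5 times. In Zic2 KO over WT cells they were 281 at ESC and 175 at 32 h with DESeq2, 94 and 48 without the filter, 207 and 1516 with only the compared groups and 0 at each stage without Ehmt1_WT (43 and 12), and 7 at 32 h without Zic2_WT. Its response difference had 24 with DESeq2, 41 with the compared groups and 50 with the block (0). That of Ehmt1 KO had 632, 132 and 1361 in the same order, 2 without Ehmt1_WT and 19 without Zic2_WT (291), and that of Ehmt1/Zic2 KO 1358, 374, 2611, 91 and 514 (829). That of Zfp281 KO had 2605 with the block and 2988 without Zfp281_WT (787). Stage responses had, with the compared groups and with the block, 1653 and 5509 in Ehmt1 KO (3526), 319 and 4310 in Ehmt1/Zic2 KO (2251), 2298 and 7525 in ribo-depleted WT (4921) and 8754 and 7553 in Zfp281 KO (4679). With the compared groups Zic2 KO had 8112 (4838), and without Zfp281_WT Zfp281 KO had 8839. In polyA WT they had 2088 without Ehmt1_WT and 3547 without Zic2_WT (5587). Against WT, Ehmt1 KO had 2155 at 32 h and 2190 at ESC without Ehmt1_WT and 2164 at 32 h without Zic2_WT (4163 and 4214). Ehmt1/Zic2 KO had 3823 and 3306 without Ehmt1_WT, 3926 at 32 h without Zic2_WT and 3386 at ESC with the compared groups (6129 and 6166), and Zfp281 KO had 5511 at ESC without Zfp281_WT (2618).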
